A study of Mus musculus with 60 samples.

Results

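The comparison described here is mid-dark against mid-light in the brain stem (BS) of vehicle injected mice, across all genes of the nanoString nCounter Mouse Neuroinflammation Panel, an assay that counts barcoded probes hybridized to each transcript. The samples were chosen by their labels, as BS samples of the vehicle groups, and 9 of the 60 samples of the series belong to it. There were 4 mice at mid-dark (mice 4, 12, 28 and 32; ZT19, that is 19 h after lights on) and 5 at mid-light (mice 2, 6, 10, 22 and 30; ZT7). All were female Balb/C mice of 13 weeks, kept in 14 h of light and 10 h of dark, whose mammary glands had been injected with DMEM alone 25 days earlier, and none carried a tumor. They were perfused with cold saline, and RNA was taken with Trizol from the dissected BS of each mouse. The other BS samples came from 10 mice injected with 67NR cells, from a mouse mammary carcinoma that does not metastasize, 5 at each time of day, and hippocampus (HPC) and hypothalamus (HYP) samples came from vehicle mice of the same groups. The series also listed mouse 8 in the vehicle mid-dark group, whose BS was not analysed here, though its HPC and HYP were. The comparison asks which transcripts of the panel differ between the middle of the active phase and the middle of the rest phase of a nocturnal animal without a tumor.

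The BS holds heavily myelinated fibre tracts, and its oligodendrocytes wrap axons in myelin, a membrane stacked from lipids and a small set of proteolipids. In a nocturnal mouse the dark is the time of waking, feeding, higher body temperature and higher glucocorticoid secretion. Cells answer heat and protein damage with chaperones, which keep other proteins folded, and daily rhythms are kept by the core clock genes. None of the 21 core clock genes on the list used here is on the panel (0 of 21), so the clock itself was not read.

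The values are log2 expression values on which the authors had already performed quantile normalization, so differences are in log2 units, and raw counts and depth are unknown. Sample medians were 8.08 to 8.09, correlations over the genes were 0.986 to 0.994 within a time of day and 0.986 to 0.992 between times. RNA concentrations were 1182 to 2853 ng/ul at mid-dark and 737.3 to 2976 ng/ul at mid-light, and A260/280 ratios 1.95 to 2.01 and 1.72 to 1.99. The ratio was under 1.9 in mice 2 (1.72) and 30 (1.8), both of the mid-light group. Of the 10 genes named next, 7 stayed past the threshold with the ratio as a covariate and 5 without these 2 mice. The differences of the 5 lost in either setting stayed close to their main values, Bag3 for example at 0.28 in both against 0.30. Most of the markers set BS apart from HPC. Slc17a6, the glutamate transporter of BS and HYP neurons, averaged 12.84 in BS against 8.55 in HPC, while the forebrain gene Tbr1 was at 3.82 against 8.02 and Dlx1 at 3.23 against 7.24. Eomes and Reln, on the same forebrain list but also markers of the neighbouring cerebellum, went the other way, at 5.92 against 4.94 and 8.77 against 8.57. In HYP, Tbr1 was at 4.81 and Dlx1 at 8.44, both above BS, and Slc17a6 was at 13.23. Slc17a7, also on the forebrain list, was higher in BS than in HYP, at 10.03 against 7.75. The blood cell markers Cd3e, Ncr1 and Ly6g averaged 3.21 to 3.27 in BS. Ttr, the choroid plexus transthyretin, ran from 8.21 to 10.05 at mid-dark and from 6.49 to 13.77 at mid-light, so the amount of choroid plexus RNA differed widely between mice of 1 group.

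Of 769 genes tested in BS of vehicle mice, 10 differed between mid-dark and mid-light (1.3%; limma, Benjamini-Hochberg adjusted p under 0.05). At mid-dark the myelin genes Opalin and Pllp were lower, by 2.45-fold and 1.74-fold, as were Mmp14, Ngfr, Kdm4d and Col6a3, by 1.29- to 1.51-fold. The chaperone genes Hspb1, Calr and Bag3 and the cell cycle inhibitor Cdkn1a were higher, by 1.23- to 1.68-fold. In each of the 10 genes the values of the 4 mid-dark mice and the 5 mid-light mice did not overlap. Over all genes, the groups did not overlap with mid-dark higher for 25 genes (3.25%) and with mid-light higher for 20 (2.6%). At an unadjusted p under 0.05, 40 genes were higher at mid-dark (5.2%) and 37 were higher at mid-light (4.81%). With the methods' t-test on the 2 groups, only Opalin passed Benjamini-Hochberg adjustment. In bulk tissue, fewer cells of a type and less RNA per cell cannot be told apart.

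**Figure D1:**
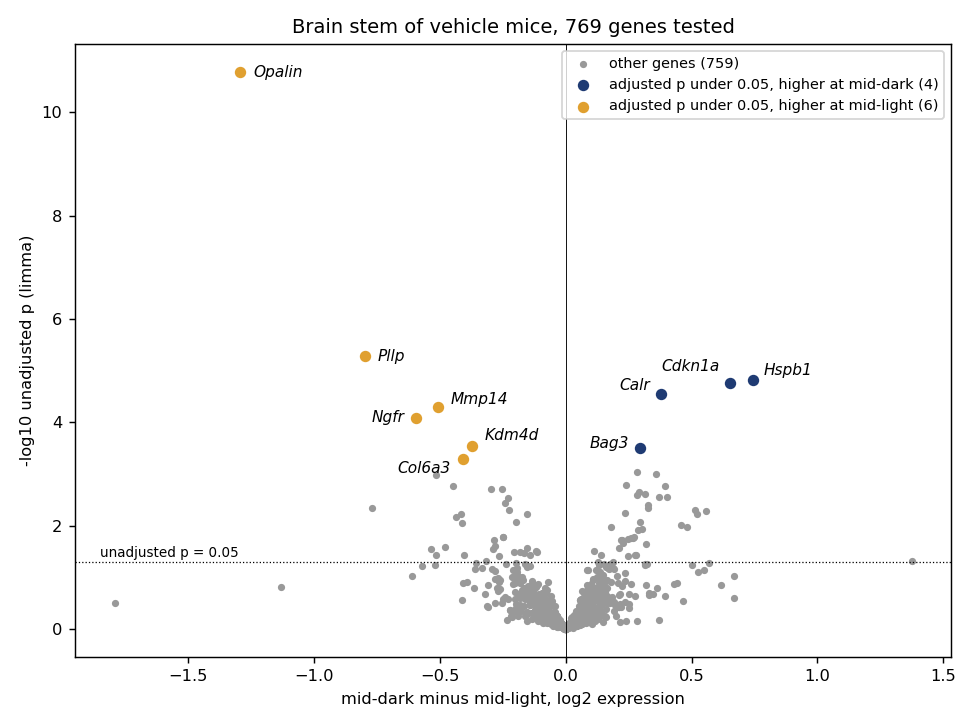
Mid-dark minus mid-light difference on the log2 scale (x axis) against -log10 of the unadjusted limma p (y axis) for the 769 genes tested in BS of vehicle mice (4 mid-dark, 5 mid-light). The 4 genes in blue were higher and the 6 in orange lower at mid-dark with an adjusted p under 0.05, and Opalin lies far above the rest.

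Opalin, a membrane protein made by oligodendrocytes and found in the paranodal and inner loops of myelin, gave the smallest p value. Its log2 values were 9.07, 8.82, 8.83 and 8.84 in mid-dark mice 4, 12, 28 and 32 and 10.06, 10.43, 10.14, 10.18 and 10.09 in mid-light mice 2, 6, 10, 22 and 30. The lowest mid-light mouse thus stood almost 1 log2 unit above the highest mid-dark mouse, mouse 4. The difference was -1.29 (95% interval -1.47 to -1.11; limma adjusted p = 1.27e-08). Pllp, the myelin proteolipid plasmolipin, had values of 9.11, 8.66, 8.90 and 8.95 in the mid-dark mice and 9.63, 9.71, 9.39, 10.00 and 9.78 in the mid-light mice. The groups lay closer together than for Opalin, with mouse 4 again the highest at mid-dark and mouse 10 the lowest at mid-light. The difference was -0.80 (95% interval -1.06 to -0.54; limma adjusted p = 0.00198).

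These 2 genes stood apart from most of the myelin list, which holds structural proteins and enzymes of myelin lipid synthesis. Of the listed genes 14 were tested. Only Opalin and Pllp of the 14 passed adjustment, both lower at mid-dark. At an unadjusted p under 0.05, 4 were lower and 0 higher at mid-dark, against 4.81% lower and 5.2% higher over all genes. The median difference of the 14 was -0.10, against 0.00 over all genes. Cnp, the cyclic nucleotide phosphodiesterase of myelin, was 13.77 in all 4 mid-dark mice and 13.90 or 14.01 in the mid-light mice, a difference of -0.20 (limma adjusted p = 0.175). Cnp is 1 of the most abundant transcripts here, and quantile normalization gives genes near the top of the ranking a few shared values. This step is thus from 1 or 2 ranks (rank 9 at mid-dark and 7 or 8 at mid-light). Calr held rank 7 or 8 at mid-dark and 9 to 14 at mid-light, so the Cnp step is not separate from that of Calr. Mag, the myelin-associated glycoprotein, differed by -0.26 (limma adjusted p = 0.403), and Mog, Mobp, Mal and Ugt8a by -0.11, 0.06, 0.15 and -0.10.

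Genes of the oligodendrocyte lineage, transcription factors, receptors and enzymes rather than myelin proteins, did not share a direction. None of the 15 tested passed adjustment, and 2 were higher and 2 lower at an unadjusted p under 0.05. Over all genes 5.2% were higher and 4.81% lower at that threshold. Erbb3, a neuregulin receptor, differed by 0.33 and Myrf, the transcription factor that drives myelin genes, by 0.25, both with mid-dark higher. Ninj2 and Gpr62 differed by -0.28 and -0.18. Sox10, the lineage factor of all oligodendrocytes, differed by 0.05.

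Hspb1, a small heat shock protein that binds unfolded proteins, was at 9.27, 9.25, 9.54 and 9.54 in the mid-dark mice and at 8.62, 8.41, 8.55, 8.72 and 8.99 in the mid-light mice. Mid-dark mice were all higher, with mouse 30 the closest of the mid-light mice. The difference was 0.74 (95% interval 0.48 to 1.01; limma adjusted p = 0.00339). Calr, the calcium-binding chaperone of the endoplasmic reticulum, was at 13.90, 14.01, 14.01 and 14.01 in the mid-dark mice and at 13.61, 13.68, 13.77, 13.45 and 13.50 in the mid-light mice. It ranked seventh or eighth among the genes of each mid-dark mouse and 9th to 14th in the mid-light mice, and its difference was 0.38 (95% interval 0.24 to 0.52; limma adjusted p = 0.00437). As a gene near the top of the ranking it moves in rank steps after quantile normalization, so the size of its difference is set by that scale. Without the mid-light mice with an A260/280 under 1.9 its adjusted p was 0.0512 in limma, with a difference of 0.35.

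Bag3, a partner of heat shock proteins in the clearance of damaged proteins, was at 8.94, 8.97, 9.06 and 8.88 in the mid-dark mice and at 8.67, 8.55, 8.67, 8.82 and 8.62 in the mid-light mice. The gap between mouse 32 at mid-dark and mouse 22 at mid-light was small, and the difference was 0.30 (95% interval 0.16 to 0.43; limma adjusted p = 0.0266). The call did not hold in 12 of 19 alternatives, with an adjusted p of up to 0.153, the value with all 3 regions in 1 model and the mouse as a block. Of the 13 genes on the chaperone list 4 are on the panel, and 3 of them rose at mid-dark, against 1.3% of all genes past adjustment. Bag4, the remaining member, differed by -0.07, and the list's median was 0.34. The list was chosen with earlier results of these data known.

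Cdkn1a, which encodes the cyclin-dependent kinase inhibitor p21 and is switched on by p53 and by glucocorticoids, was at 8.86, 8.69, 8.87 and 8.89 in the mid-dark mice and at 8.31, 8.28, 7.94, 8.29 and 8.05 in the mid-light mice. The difference was 0.65 (95% interval 0.42 to 0.89; limma adjusted p = 0.00339). Other p53 and growth arrest genes did not pass: of 16 tested, Cdkn1a alone passed adjustment. At an unadjusted p under 0.05, 1 was higher, Cdkn1a itself, and 2 were lower, Cdkn1c and Tnfrsf10b. Among all genes the shares at this threshold were 5.2% higher and 4.81% lower. Mdm2, the p53 target that degrades p53, differed by 0.00, Bax by 0.15 and Gadd45a by 0.05. Cdkn1c, another kinase inhibitor, differed by -0.48 and Tnfrsf10b by -0.40 (limma adjusted p = 0.345 and 0.397). Of the glucocorticoid-induced list 5 of 16 genes are on the panel, Cdkn1a among them. Fkbp5, a co-chaperone of the glucocorticoid receptor and a common readout of its activity, was at 7.92, 7.79, 7.82 and 7.85 in the mid-dark mice and at 7.28, 7.53, 7.48, 7.78 and 7.78 in the mid-light mice. All mid-dark values were higher, though by a narrow margin, and the difference of 0.28 did not pass (limma adjusted p = 0.397). Lcn2 differed by 0.47 (limma adjusted p = 0.777), and Nfkbia and Serpina3n by 0.00 and 0.03. Of these 5 genes, 2 were higher at mid-dark at an unadjusted p under 0.05, Cdkn1a and Fkbp5, and 0 were lower. The median of the list was 0.28, against 0.00 over all genes.

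Mmp14, a membrane-anchored protease that cuts the extracellular matrix, was at 7.88, 7.92, 7.89 and 7.63 in the mid-dark mice and at 8.46, 8.47, 8.20, 8.25 and 8.31 in the mid-light mice. Mid-light mice were all higher, and mouse 32 was the lowest of all. The difference was -0.51 (95% interval -0.71 to -0.31; limma adjusted p = 0.00656), and without the mid-light mice with an A260/280 under 1.9 the adjusted p was 0.0577 in limma, with a difference of -0.48. Col6a3, a chain of the matrix protein collagen VI, was at 6.65, 6.85, 6.77 and 6.74 in the mid-dark mice and at 7.17, 7.28, 6.94, 7.25 and 7.15 in the mid-light mice. Its difference was -0.41 (limma adjusted p = 0.0392), and it failed in 13 of 19 alternatives, with an adjusted p of 0.672 in the model of all 3 regions with the mouse as a block.

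Ngfr, the low-affinity neurotrophin receptor, was at 5.44, 5.37, 5.21 and 5.08 in the mid-dark mice and at 5.84, 5.86, 5.96, 5.98 and 5.71 in the mid-light mice, a low level on this panel. The difference was -0.60 (95% interval -0.84 to -0.35; limma adjusted p = 0.00921). It was not called in the model of all 3 regions with the mouse as a block (adjusted p = 0.374) or without mouse 32. Kdm4d, a histone lysine demethylase, was at 5.62, 5.52, 5.39 and 5.57 in the mid-dark mice and at 5.99, 5.96, 5.77, 5.94 and 5.83 in the mid-light mice. Its difference was -0.37 (limma adjusted p = 0.0266), and it failed in 11 of 19 alternatives, with 0.111 under the block. It was the only one of 57 chromatin modifiers tested that passed adjustment. At an unadjusted p under 0.05, 1 was higher and 3 were lower at mid-dark, against 5.2% and 4.81% of all genes.

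**Figure D2:**
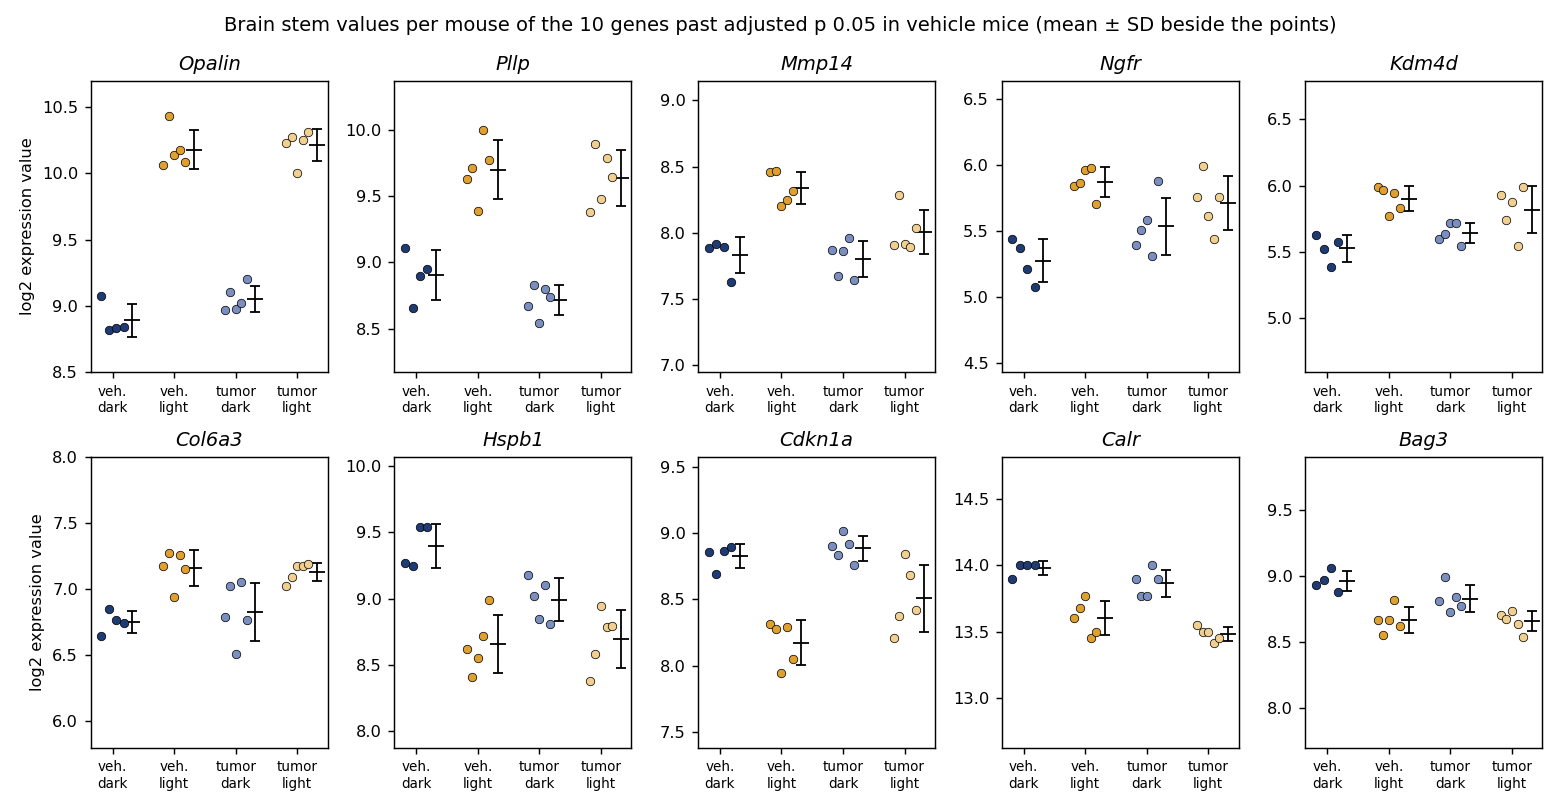
Log2 expression values (y axis, each panel spanning the same range) of the 10 genes in each BS sample, for vehicle mice at mid-dark (n = 4) and mid-light (n = 5) and for tumor-bearing mice at mid-dark (n = 5) and mid-light (n = 5), with mean and SD beside the points. In vehicle mice no gene's groups overlap; in tumor-bearing mice they stay apart for Opalin, Pllp and Calr.

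The promoters of the 5 genes that passed in the myelin and chaperone groups are shown, so that the letters before the start of genes that moved in opposite directions can be set side by side. Sequences are from RefSeq on GRCm38.p6 and run in the direction of the gene. For Opalin (chr19:41077114-41077363, minus strand), Pllp (chr8:94696243-94696492, minus strand), Hspb1 (chr5:135887669-135887918, plus strand) and Calr (chr8:84846932-84847181, minus strand) the 250 bases before the transcription start are given, and for Bag3 the 30 bases from 21 to 50 after it (chr7:128523603-128523632, plus strand). Capitals mark the matches to the motifs named below.
Opalin: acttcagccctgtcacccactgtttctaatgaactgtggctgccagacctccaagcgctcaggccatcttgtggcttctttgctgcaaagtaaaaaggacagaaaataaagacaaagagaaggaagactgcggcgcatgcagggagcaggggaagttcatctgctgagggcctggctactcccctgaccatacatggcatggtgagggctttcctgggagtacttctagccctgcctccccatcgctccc
Pllp: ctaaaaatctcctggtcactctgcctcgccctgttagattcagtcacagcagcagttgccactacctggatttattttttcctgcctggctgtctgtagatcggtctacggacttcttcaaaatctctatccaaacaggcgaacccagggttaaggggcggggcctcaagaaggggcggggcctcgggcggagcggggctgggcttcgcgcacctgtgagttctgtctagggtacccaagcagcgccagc
Hspb1: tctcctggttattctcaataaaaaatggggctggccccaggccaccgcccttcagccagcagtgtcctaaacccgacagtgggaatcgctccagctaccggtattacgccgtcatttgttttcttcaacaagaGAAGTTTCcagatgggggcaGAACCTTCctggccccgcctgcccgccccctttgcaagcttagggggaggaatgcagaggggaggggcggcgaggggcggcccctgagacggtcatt
Calr: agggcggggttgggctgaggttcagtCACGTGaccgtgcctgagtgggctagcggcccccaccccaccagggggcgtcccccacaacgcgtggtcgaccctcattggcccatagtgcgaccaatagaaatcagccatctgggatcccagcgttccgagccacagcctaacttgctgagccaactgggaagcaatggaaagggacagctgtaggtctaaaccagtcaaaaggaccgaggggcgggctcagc
Bag3: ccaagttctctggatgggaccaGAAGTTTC

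Windows of 300 bases, 250 before and 50 after the start, were searched on both strands, and all 10 genes had one (11 windows). The E-box CACGTG, to which the clock proteins bind, was found in Calr, from 224 to 219 bases before its start, and in 7.15% of 32851 windows of all genes. The D-box TTATGTAA (0.938% of windows), the cAMP element TGACGTCA (1.79%) and the ROR element AGGTCA (16.3%) were in none of the 10. The heat shock factor motif in the form GAANNTTC, searched after the chaperone genes had been seen, was in Hspb1 at 2 places, from 117 to 110 and from 97 to 90 bases before the start, and in Bag3 from 43 to 50 after it, against 7.86% of all windows. Its other form, TTCNNGAA, was in Cdkn1a and in 8.52% of windows. No motif overlapped another in these windows. A match describes letters, and binding was not measured.

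The lists of neuronal activity, immunity and cell types held no gene that passed adjustment in the model of BS. With the 3 regions in 1 model and the mouse as a block, Irf3, Trat1 and Trp73 of these lists passed for BS (limma adjusted p = 0.00297, 0.0114 and 0.0134), and without mouse 2 Jun and Tlr7 did (0.0197 and 0.0377). Of 12 immediate early and activity genes tested, 3 were higher at mid-dark at an unadjusted p under 0.05 and 0 were lower. Over all genes the shares were 5.2% and 4.81%. The median was 0.10 for the list and 0.00 over all genes. Jun, a subunit of the transcription factor AP-1, differed by 0.37, Bdnf, a neurotrophin, by 0.40 and Arc, a synaptic protein made after activity, by 0.31 (limma adjusted p = 0.0916, 0.0916 and 0.205). Egr1 was on the other side, at 9.43, 9.39, 9.04 and 9.50 in the mid-dark mice and at 9.58, 9.74, 10.05, 9.53 and 9.60 in the mid-light mice. Its groups did not overlap, yet the spread within them was wide (-0.36; limma adjusted p = 0.511). Fos differed by 0.00 and Timeless, the panel gene named for the clock though it serves replication in mammals, by 0.01, and the sign of both turned when single mice were left out.

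Among immune genes, 1 of 26 activated microglia and complement genes was higher at mid-dark at an unadjusted p under 0.05, and none of 14 homeostatic microglia genes was past it in either direction. The 1 was Fcgr2b, the inhibitory Fc receptor (0.40; limma adjusted p = 0.0831). Tlr7, a sensor of single-stranded RNA, differed by -0.45 (adjusted p = 0.0831, limma), and 1 of 22 toll-like receptor and NF-kB genes was higher and 2 were lower at mid-dark. Irf3, a transcription factor of the interferon response, had values of 8.61, 8.60, 8.74 and 8.67 in the mid-dark mice and 8.36, 8.10, 8.30, 8.23 and 8.49 in the mid-light mice, and missed the threshold in the model of BS (0.36; limma adjusted p = 0.0621), while it passed in 4 alternatives, the block among them. The interferon receptor chains Ifnar1 and Ifnar2 differed by -0.12 and -0.24, and of 24 interferon-related genes 1 was higher and 2 were lower. Of 21 cytokine and chemokine genes 0 were higher and 1 was lower, Ccl2 (-0.53; limma adjusted p = 0.356). These counts lie near the share of all genes past the same threshold, 5.2% and 4.81% by direction.

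For the cell type lists, the counts are again set beside the shares of all genes, 5.2% higher and 4.81% lower. Of 35 neuronal and synaptic genes 1 was higher at mid-dark at an unadjusted p under 0.05 (median 0.02), of 12 astrocyte genes 1 was lower (median 0.00), of 15 endothelial genes 2 were higher and 1 lower (median -0.01), and of the 33 genes of T cells, B cells, NK cells, mast cells and neutrophils 2 were higher (median 0.04). Of the choroid plexus and ependymal genes, 2 are on the panel and none passed in the model of BS, Trp73 with a difference of -0.77 (limma adjusted p = 0.127, and 0.0134 with the block) and Ttr with one of -1.79 (limma adjusted p = 0.798). Within the mid-light group Trp73 followed Ttr in being low in mice 2 and 6, at 4.98 and 4.75 against 5.45 to 5.64 in mice 10, 22 and 30. Both genes averaged lower at mid-dark, while the lowest Trp73 value, 4.04, was at mid-dark and the lowest Ttr value, 6.49, at mid-light. The summed level of the 2 genes, as log2 of the sum of their linear values, was 8.29 to 10.08 at mid-dark and 6.87 to 13.77 at mid-light, and the part of choroid plexus RNA in the results was not tested.

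**Figure D3:**
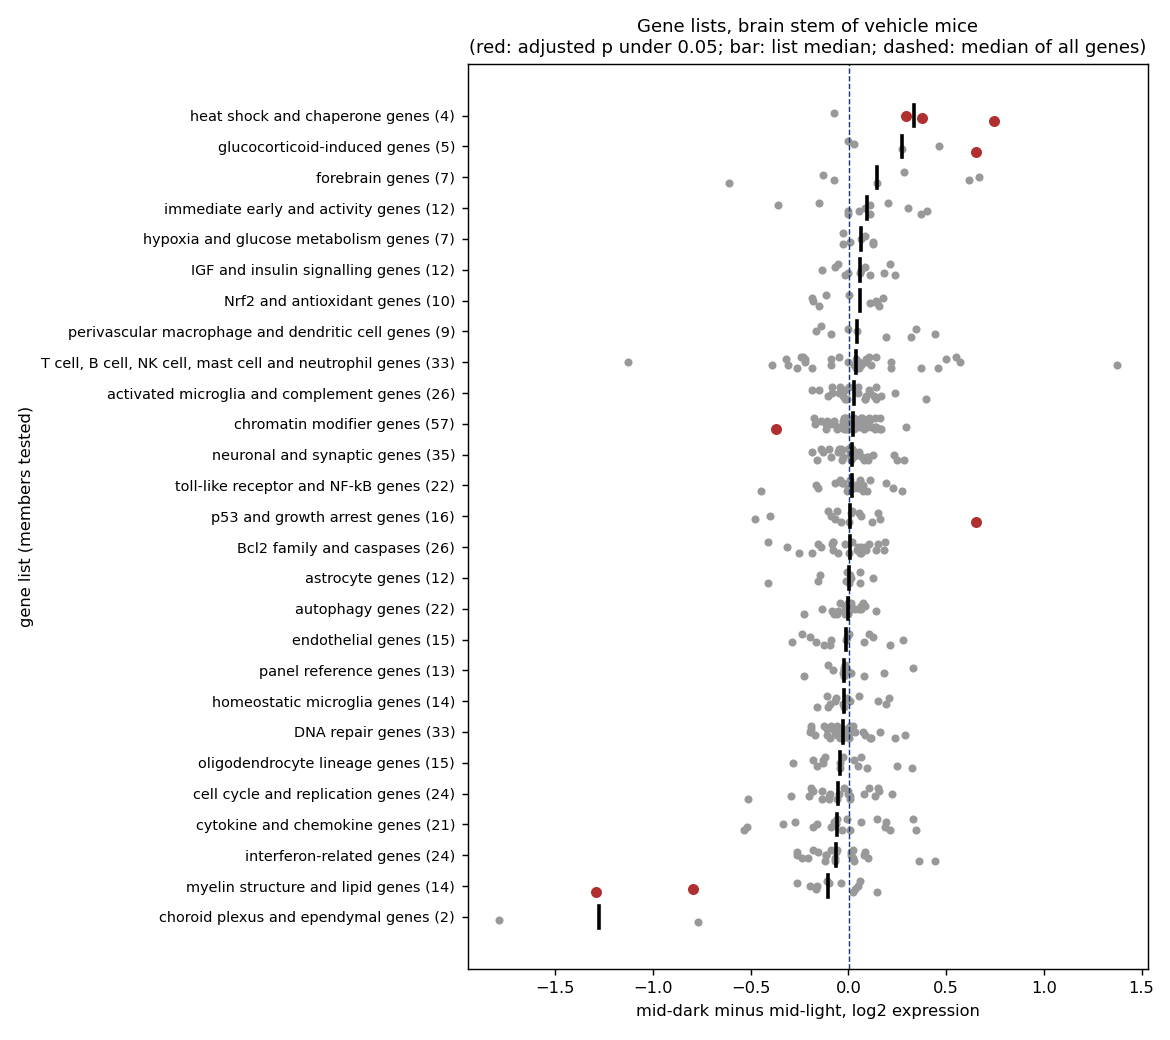
Mid-dark minus mid-light differences (x axis, log2) in BS of vehicle mice for the tested members of each gene list (y axis, number of members in brackets), each point 1 gene. Red points have an adjusted p under 0.05, black bars are list medians, and the dashed line is the median of all 769 genes; red points fall in the myelin, chaperone, glucocorticoid, p53 and chromatin lists, Cdkn1a counting in 2 of them.

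Over all 19 BS samples, vehicle and tumor-bearing, the genes whose levels were most like that of Opalin were Pllp, with a Pearson r of 0.92, then Bid (0.82), Gclc (0.81), Col6a3 (0.80) and Optn (0.79). The samples share the 2 times of day, which alone draws such correlations up. Of the 5, Bid, Gclc and Optn did not pass in vehicle mice, with differences of -0.25, -0.15 and -0.23.

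Tumor-bearing mice gave the same comparison in 10 other animals. There 6 genes passed adjustment (0.78%), Opalin, Pllp, Calr, Cldn5, Atp6v0e and Mog, and at an unadjusted p under 0.05 36 genes were higher at mid-dark (4.68%) and 42 lower (5.46%). All 10 genes called in vehicle mice had the same direction in tumor-bearing mice, and 9 of them had an unadjusted p under 0.05 (7 when tumor-bearing mice were fitted alone). Opalin was at 8.97 to 9.20 at mid-dark and at 10.00 to 10.31 at mid-light, a difference of -1.16 (limma adjusted p = 2.71e-08). Pllp and Calr differed by -0.92 and 0.38, and of the 10 genes only these 3 had groups that did not overlap. Genes outside the 10, such as Cldn5, also did not overlap, and the share over all genes was not counted in tumor-bearing mice. For 8 of the 10 the difference was smaller than in vehicle mice, in which the genes had been selected by their p, a choice that by itself favours larger values there. Hspb1, for example, was at 8.81 to 9.18 at mid-dark and 8.38 to 8.94 at mid-light, a difference of 0.30 (limma adjusted p = 0.372) against 0.74. Ngfr differed by -0.17 (limma adjusted p = 0.634).

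Whether the phase difference itself differed between vehicle and tumor-bearing mice was tested as an interaction. No gene passed adjustment in limma, and 28 of 769 had an unadjusted p under 0.05 (3.64%). Among these were Ngfr (-0.42), Hspb1 (0.45) and Mmp14 (-0.30), whose limma adjusted p values were 0.936, 0.936 and 0.999. For Opalin the interaction was -0.13 (95% interval -0.37 to 0.12) and for Calr -0.01 (95% interval -0.20 to 0.19). Setdb1, a histone methyltransferase, had the smallest interaction p, with 0.29 in vehicle and -0.20 in tumor-bearing mice (interaction 0.50; limma adjusted p = 0.634). Cldn5, the tight junction protein of brain endothelium, differed by 0.59 in tumor-bearing mice (limma adjusted p = 0.0186) and by 0.28 in vehicle mice (adjusted p = 0.397), and the interaction of -0.31 did not pass (limma adjusted p = 0.999). Of the 14 myelin genes tested, 8 were lower at mid-dark at an unadjusted p under 0.05 in tumor-bearing mice and 4 in vehicle mice. Their medians were -0.22 and -0.10, and the shares of all genes lower at that threshold were 5.46% and 4.81%. A260/280 of the tumor-bearing BS samples was 1.34, 1.82, 1.99, 1.47 and 1.68 at mid-dark (mice 3, 7, 11, 19 and 23). At mid-light it was 1.97, 1.97, 1.96, 1.94 and 1.51 (mice 1, 5, 9, 13 and 29). Most low ratios thus lay at mid-dark, whereas in vehicle mice the ratios under 1.9 were both at mid-light. RNA purity ran with the phase, in opposite directions in vehicle and tumor-bearing mice. With the ratio as a covariate, 7 of the 10 genes stayed past the threshold in vehicle mice. Its part in the differences of tumor-bearing mice was not tested. The interaction was also fitted with this covariate, with results not given here.

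HPC and HYP of vehicle mice were set against BS in 1 model of the 3 regions, with the mouse as a block. Mouse 8, which has no BS value here, is among the mid-dark mice of HPC and HYP, and HYP lacks mice 10, 12 and 32. In this model 13 genes passed adjustment between mid-dark and mid-light in BS, 27 in HPC (3.51%), with 5 mice at each time, and 8 in HYP (1.04%), with 3 and 4 mice. Opalin was lower at mid-dark in all 3 regions. It was at 8.64 to 8.82 at mid-dark and 9.38 to 9.91 at mid-light in HPC, a difference of -1.04, and at 8.10 to 8.68 and 9.00 to 9.75 in HYP, a difference of -1.03 (limma adjusted p = 0.000446 in HYP). Pllp differed by -0.84 in HPC and -0.61 in HYP, Hspb1 by 0.83 and 0.81, and Cdkn1a by 0.35 and 0.46, all with a limma adjusted p under 0.05. Calr passed in HPC (0.49) and not in HYP (0.22; limma adjusted p = 0.325). The remaining 5 genes, Mmp14, Ngfr, Kdm4d, Bag3 and Col6a3, passed in neither region, with the sign they had in BS in both. Mouse 8 apart, the HPC and HYP samples come from mice that also gave BS, and all were normalized in 1 table, so the regions are mostly further tissues of the same animals.

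The difference between regions was then tested itself. No gene of the 10 differed between BS and HPC or between BS and HYP in its phase difference, the smallest adjusted p being 0.824, for Cdkn1a between BS and HPC (limma). The intervals are wide for the genes of low level: for Ngfr the phase difference was -0.59 in BS (in this model) and -0.12 in both HPC and HYP, and BS minus HPC was -0.47 (95% interval -1.18 to 0.23). Over all genes, 1 passed adjustment between BS and HPC (0.13%) and none between BS and HYP (0%), and 42 (5.46%) and 18 (2.34%) had an unadjusted p under 0.05. The 1 was Apoe, the lipid carrier that astrocytes secrete, which was at 13.90 or 14.01 in every vehicle BS sample and differed by -0.02 there, against -0.31 in HPC (difference between regions 0.30, 95% interval 0.18 to 0.41; limma adjusted p = 0.0127). Apoe is at rank 7 or 8 in BS, where quantile normalization leaves few values, and without any 1 of 6 of the 10 mice no gene passed.

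**Figure D4:**
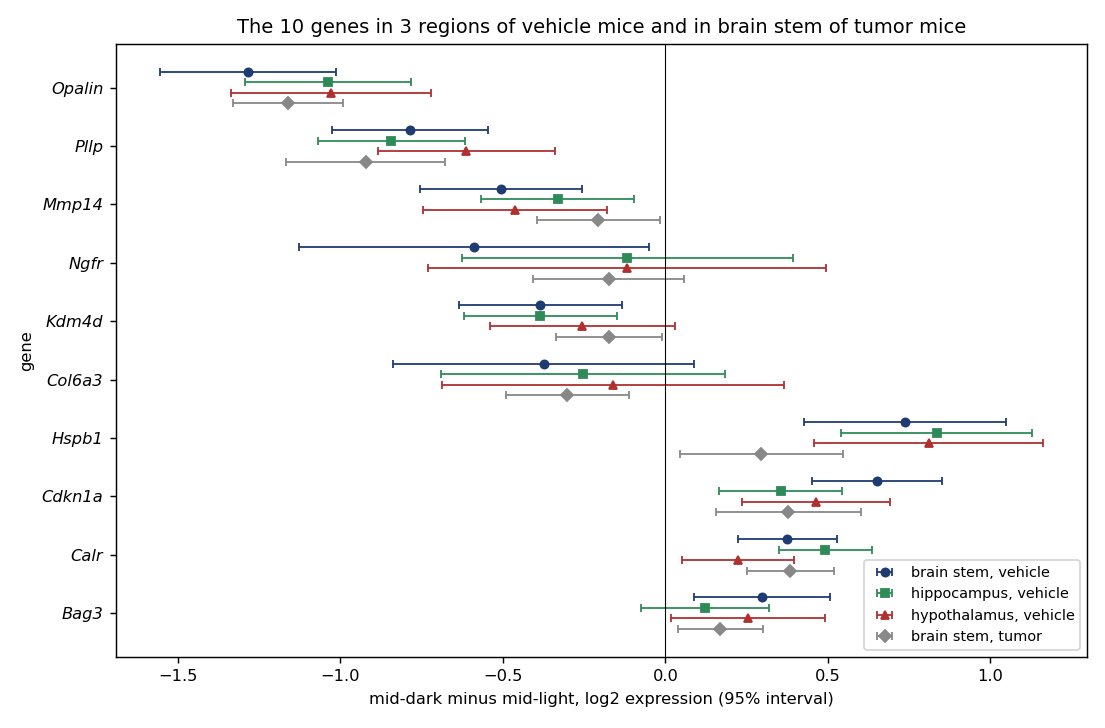
Mid-dark minus mid-light difference (x axis, log2, with 95% intervals) of the 10 genes (y axis) in BS, HPC and HYP of vehicle mice, from the model of 3 regions with the mouse as a block, and in BS of tumor-bearing mice, from the model of BS alone. Opalin and Pllp lie below 0 and Hspb1, Cdkn1a and Calr above 0 in all 4 series. The intervals of Ngfr and Col6a3 reach 0 in HPC and HYP. That of Col6a3 also reaches 0 in BS of vehicle mice in this model, and that of Ngfr in BS of tumor-bearing mice.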

How the data were processed

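Transcripts were counted on the nCounter Mouse Neuroinflammation Panel v1 of nanoString. Per the methods and labels, the authors subtracted negative control background in nSolver, normalized to positive controls and to CodeSet content by geometric mean, quantile normalized the result with Partek software and deposited it on a log2 scale, as 770 genes for 56 of 60 samples. Samples held to be outliers by raw data had been left out, and the BS of mouse 8 and HYP of mice 10, 12 and 32 were not analysed here. No genome build applies to probe counts.

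Samples were grouped by their labels, with mice as replicates. limma 3.58.1 in R 4.3.3 was fitted to the 19 BS samples as 4 group means (15 residual degrees of freedom), with Benjamini-Hochberg adjustment over 769 genes. Genes with 1 value throughout BS were not tested, and some items are not reported here. Vehicle samples of 3 regions were fitted as 6 group means with the mouse as a random block (consensus correlation 0.104), since the regions came from the same animals. Deviations of a mouse's regions from their group means correlated with its BS at -0.133 to 0.357 (HPC) and 0.00383 to 0.158 (HYP). Intervals are 95%. The genes named are those with an adjusted p under 0.05, further genes by p to make 24, the 3 of smallest p in each list, Timeless, Fkbp5, Fos, Arc and Egr1, up to 2 genes of each other comparison, and the 5 most like Opalin. Other list members and markers were named in addition, after their values were seen. The comparison, members and gene lists were chosen with earlier results of these data known. Promoters were searched in Python 3.11.15, and plots were drawn with matplotlib 3.10.9.

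On simulated data of 769 genes for this comparison, changes of 0.3, 0.6 and 1 log2 unit were recovered for 44%, 87% and 97% of changed genes. With no effect, 5.85% of genes had an unadjusted p under 0.05. The changes were put into a much larger share of genes than passed in the data, and noise was independent between genes. A larger share of changed genes makes Benjamini-Hochberg adjustment more lenient, so recovery in the data may be lower than these shares. Alternatives changed the samples in the fit, the test, the variance prior, the filter (mean log2 of at least 5), the normalization, RNA quality terms and single mice.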

Additional observations from a re-analysis of the deposited data

Results flagged for a closer look

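In vehicle BS, 10 of 180 groups of values of the named genes held 1 mouse far from the others by Dixon's rule, where chance flags about 5%. Mouse 4 at mid-dark was apart in 5 genes. It was the highest of its group for Opalin (9.07, the others 8.82 to 8.84), Cldn5 (10.27, the others 10.15 to 10.17) and Apoe (14.01, the others 13.90), and the lowest for Calr (13.90, the others 14.01) and Spib (4.07, the others 4.61 to 4.72). Calr and Apoe exchanged neighbouring ranks in this mouse, so their flags are not separate. The Opalin value of mouse 4 was still below all mid-light mice.

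The other flagged mid-dark values were Mmp14 in mouse 32 (7.63, the others 7.88 to 7.92), Kcnj10 in mouse 12 (13.68, the others 13.61) and Plekhm1 in mouse 28 (7.95, the others 8.25 to 8.28). At mid-light, Cdc25a was low in mouse 22 (8.79, the others 8.88 to 8.91) and Tbr1 in mouse 2 (3.70, the others 4.13 to 4.27).

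Apoe was flagged for a phase difference that differed between regions, BS minus HPC by 0.30 (limma adjusted p = 0.0127).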

How the results depend on the processing

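Among the 10 genes, no difference changed sign in any of 19 alternatives. Opalin was called in 19 of 19. Pllp, Hspb1 and Cdkn1a lost the call only with the methods' t-test (adjusted p = 0.0592, 0.0592 and 0.0521), Calr and Mmp14 also without the mice with A260/280 under 1.9, and Ngfr in 3, Kdm4d in 11, Bag3 in 12 and Col6a3 in 13 of 19. The counts of 4 genes higher and 6 lower at mid-dark became 8 and 5 with the 3 regions in 1 model and the mouse as a replicate block (13 genes, 6 of them among the 10), and 0 and 1 with the methods' t-test, which had 93 genes at an unadjusted p under 0.05 against 77. Lower genes numbered 3 without the mice with A260/280 under 1.9, and with each mouse left out both counts ran from 3 to 6, the lowest number of lower genes without mouse 32. In tumor-bearing mice 6 genes became 3 when only these groups were fitted, and 3 to 8 with each mouse left out, 3 without mouse 13 or 19. BS against HPC gave 0 to 1 adjusted genes with each mouse left out (0 without mouse 2, 6, 12, 22, 28 or 32) and 31 to 68 unadjusted, the most without mouse 4. It gave 1 and 37 with no replicate block. BS against HYP gave 10 unadjusted genes of 18 with the mean log2 filter, 12 with no replicate block, and 15 to 32 with each mouse left out, the most without mouse 28. The sign of Fos turned with quantile normalization of BS alone (-0.000797) and A260/280 as a covariate (-0.071), and with each mouse left out its difference ran from -0.0625 to 0.102. That of Timeless ran from -0.0489 to 0.0644 with each mouse left out. Depth is unknown, and the number of mice limits the precision.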
